A study of Mus musculus with 12 samples.

Results

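The 37 genes described here encode proteins that start, carry out or restrain DNA replication and cell division. They were chosen by name as rows of a liver expression table that lists 22557 genes, across all 12 libraries of the series. All 37 were in the table, and all 37 passed the filter on low values used for testing (10 or more in 3 or more libraries), as did 17380 genes in all. By role they were 21 genes of mitosis, 11 of DNA replication and 5 of entry into the cycle.

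A cell that divides passes from a first gap phase (G1) into DNA synthesis (S) and then into mitosis. Cyclin D1 with its kinases frees E2F factors, which switch on replication genes, and later the mitotic genes are transcribed together and are silent in resting cells. Most hepatocytes of an adult liver rest outside the cycle and can re-enter it after loss of tissue, so RNA of mitotic genes in whole liver can come from few dividing cells of any type.

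The libraries were made from powdered whole liver of age-matched female mice, with ribosomal RNA removed from total RNA, and each of 4 groups held 3 libraries from different mice. WT_no_tumor and WT_tumor were wild type (WT), and KO_no_tumor and KO_tumor carried a knockout (KO) of Mtdh, which encodes metadherin, a membrane and RNA-associated protein often raised in cancers. The tumour groups bore an allograft of Py8119, a mouse mammary tumour cell line, and the other groups bore none. The labels call the knockout Mtdh KO and name no allele, promoter, Cre line, strain, age, tumour site or time, and whether the gene is missing in all cells is not given in the sources used here. The study's title places the comparison in lipid metabolism of the liver and CD8 T cells, and the cell cycle genes bear on which livers held RNA of dividing cells.

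Values are reads scaled with a size factor for each library and carry no correction for transcript length, so levels are compared between livers and not between genes. Estimated depth was 12700000 reads in KO_tumor replicate 1 and 25700000 to 43000000 reads in the other 11 libraries. KO_tumor replicate 1 also had 14899 genes above 0, against 17772 to 20365 elsewhere, and a mean correlation of 0.831 with the other libraries across genes, against 0.887 to 0.926. Protein-coding genes held 83.7% of the signal in KO_no_tumor replicate 3 and 92.2% to 95.7% in the other libraries. Mtdh lay between 323 and 1063 in the 6 KO livers and between 3954 and 5702 in the 6 WT livers, so every library matched its labelled genotype. Albumin, the main product of hepatocytes, ranged from 2070000 to 3870000 over the libraries, and 11 of the 12 hepatocyte markers on the list were in the table and above 0 in each.

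The promoters of 30 of the 37 genes were in the RefSeq table used (build GRCm38.p6), and a few are printed because the mitotic genes were the members whose fold changes shared a direction between WT_tumor and KO_tumor livers. In the 250 bases before the start site, both strands were searched for 3 motifs that are known from cell cycle promoters. They were the cell cycle homology region (CHR: TTTGAA or TTTAAA), the CCAAT box (CCAAT) and a core E2F site (TTTCCCGC, TTTCGCGC, TTTGCCGC or TTTGGCGC), and matches could overlap. The CHR letters were found in 14 of the 30 promoters (46.7%), against 28.1% of the 27025 genes with a promoter in the table. CCAAT was found in 22 of 30 (73.3%), against 37.5%, and an E2F site in 5 of 30 (16.7%), against 2.16%. Aurkb, Ccna2, Ccnd1, Ccne2, Mcm4 and Tpx2 had no entry, and Kif20a was not used here.

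The last 150 bases before the start site are printed 5′ to 3′ on the gene's strand, with any match in capitals. ATTGG is the CCAAT box and TTCAAA the CHR read on the other strand. Mki67, Ccnb1, Cdk1, Bub1 and Kif11 stand for the mitotic genes and Mcm6 for the replicative helicase. Their stretches are chr7:135716380-135716529 (minus strand), chr13:100786487-100786636 (minus strand), chr10:69352913-69353062 (minus strand), chr2:127831860-127832009 (minus strand), chr19:37376232-37376381 (plus strand) and chr1:128359706-128359855 (minus strand).
Mki67: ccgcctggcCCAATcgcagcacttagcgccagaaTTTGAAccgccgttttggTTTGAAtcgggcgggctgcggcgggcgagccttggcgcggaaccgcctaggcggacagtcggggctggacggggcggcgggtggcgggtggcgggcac
Ccnb1: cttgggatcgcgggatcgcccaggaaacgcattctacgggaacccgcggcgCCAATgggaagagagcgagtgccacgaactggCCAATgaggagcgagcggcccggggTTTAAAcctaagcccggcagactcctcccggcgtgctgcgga
Cdk1: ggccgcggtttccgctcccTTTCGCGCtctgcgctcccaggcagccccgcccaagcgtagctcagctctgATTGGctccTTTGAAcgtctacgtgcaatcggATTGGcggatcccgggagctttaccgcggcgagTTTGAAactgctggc
Bub1: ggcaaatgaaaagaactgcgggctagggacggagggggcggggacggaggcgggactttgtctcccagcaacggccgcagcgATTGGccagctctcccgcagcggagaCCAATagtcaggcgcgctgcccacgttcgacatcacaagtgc
Kif11: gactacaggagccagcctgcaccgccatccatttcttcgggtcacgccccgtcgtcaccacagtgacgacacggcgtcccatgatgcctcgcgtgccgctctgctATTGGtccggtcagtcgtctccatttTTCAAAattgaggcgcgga
Mcm6: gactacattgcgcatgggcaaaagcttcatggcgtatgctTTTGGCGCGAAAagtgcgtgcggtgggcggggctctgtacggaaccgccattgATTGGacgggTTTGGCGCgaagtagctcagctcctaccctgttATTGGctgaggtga

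In these stretches Mki67 held 2 CHR matches and 1 CCAAT box, Ccnb1 held 1 CHR match and 2 CCAAT boxes, and Cdk1 held 2 CHR matches, 2 CCAAT boxes and 1 E2F site. Kif11 held 1 CHR match and 1 CCAAT box, and Bub1 held 2 CCAAT boxes and no CHR match. Mcm6 held 3 E2F sites, 2 of them overlapping on opposite strands, and 2 CCAAT boxes. By role, the CHR letters were found in 4 of 5 promoters of mitotic entry genes and in 2 of 7 of the licensing and helicase genes. An E2F site was found in 1 of 5 and 4 of 7 of these. The CHR letters were also in Mki67 and Top2a, 3 of 6 checkpoint and exit genes and 2 of 4 motor and cytokinesis genes. They were in 1 of 3 cycle entry genes and 0 of 3 nucleotide supply and fork genes. No gene of these further roles held an E2F site. A match describes letters only and does not show that a factor binds there.

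The median level of the mitotic genes was even across the 3 WT_tumor livers and uneven in the other groups. Single genes were not all even, and Ccnb2 ranged from 4.32 to 46.1 in WT_tumor. For each gene the log2 values (with 1 added to each value before the log) were centred on their mean over the 12 libraries, and the median deviation of the 21 mitosis genes was taken in each library. It was 0.79, 0.60 and 0.74 in WT_tumor, 0.82, −1.13 and −0.13 in WT_no_tumor, −0.31, −0.17 and 1.07 in KO_no_tumor, and −1.47, −0.05 and −0.42 in KO_tumor. Every WT_tumor liver thus lay above every KO_tumor liver, while both groups without a tumour held a liver as high as the WT_tumor livers. For the 11 replication genes the medians ranged from −0.37 in KO_no_tumor replicate 1 to 0.66 in WT_no_tumor replicate 1, and the groups overlapped. Fewer dividing cells and less RNA per dividing cell cannot be told apart in whole liver.

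**Figure D1:**
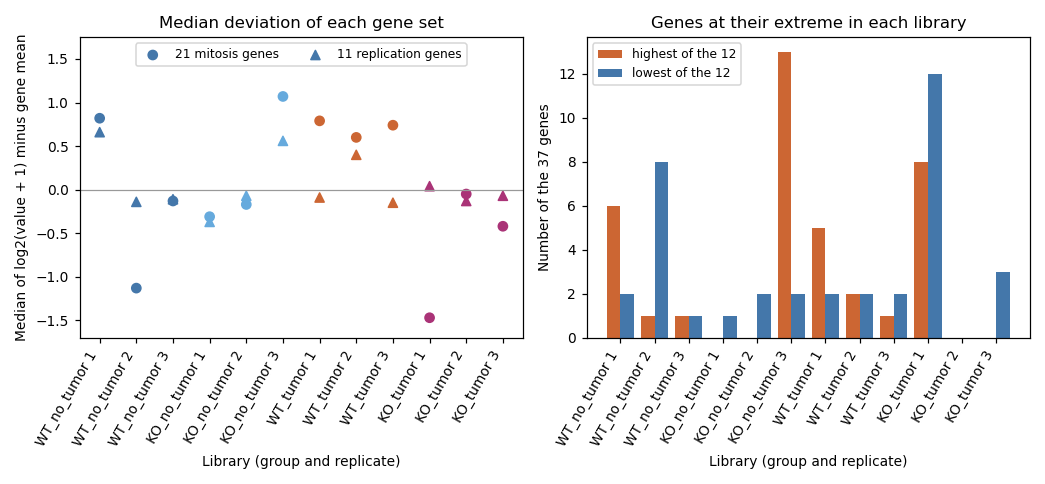
Left, the median deviation of log2(value + 1) from each gene's mean in each library, with circles for the 21 mitosis genes and triangles for the 11 replication genes, coloured by group. Right, bars count for how many of the 37 genes a library was the highest or lowest of the 12. WT_tumor circles lie between 0.60 and 0.79, and the bars are tallest for KO_no_tumor replicate 3 (13 genes highest) and KO_tumor replicate 1 (12 lowest and 8 highest).

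Extremes were concentrated in the libraries that stood apart. KO_no_tumor replicate 3 was the highest of the 12 for 13 of the 37 genes. KO_tumor replicate 1 was the lowest for 12 and the highest for 8, and 14 of its values rested on 3 reads or fewer, 6 of them on none, against at most 8 and 3 in any other library. The ratio of the highest to the lowest liver within a group, taken as a median over the members without a zero, was 3.43 in WT_no_tumor (32 members), 3.11 in KO_no_tumor (33), 1.99 in WT_tumor (37) and 2.79 in KO_tumor (31). Between 2 groups, the standard error of a log2 fold change had a median of 0.81 for the 37 genes and of 0.5 for all 17380, so only large differences could pass a test here.

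**Figure D2:**
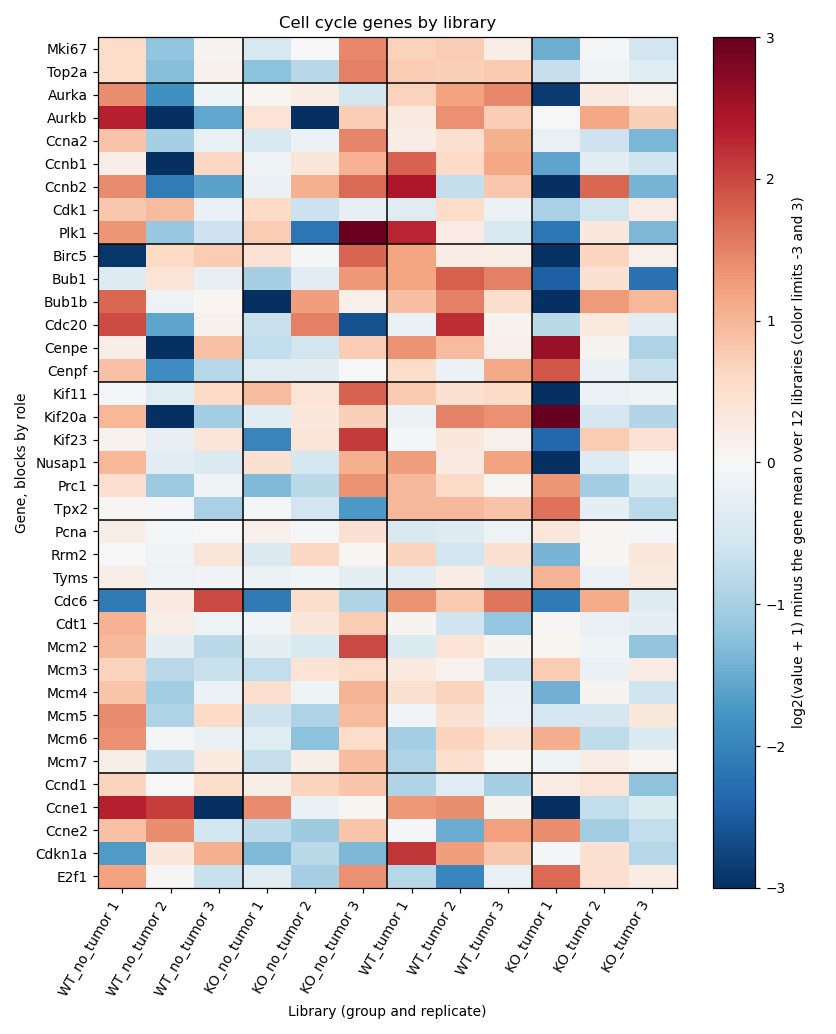
Each row is a cell cycle gene, in blocks by role, and each column a library, with vertical lines between the 4 groups; colour is log2(value + 1) minus the gene's mean over the 12 libraries, red for above and blue for below. The upper 4 blocks, the 21 mitosis genes, are mostly red in the 3 WT_tumor columns (medians 0.60 to 0.79), and KO_tumor replicate 1 holds the darkest blue cells beside a few dark red ones.

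By limma over all genes, 0 of the 37 genes passed an adjusted p of 0.05 in any of 6 comparisons. These were tumour against none in WT, in KO and averaged over both genotypes, KO against WT in livers with no tumour and in livers with a tumour, and the genotype by tumour interaction. The smallest adjusted p of a member was 0.238, 0.34, 0.0896, 1, 0.228 and 0.859 in these comparisons, in that order. The share of all genes tested that passed was 0.679%, 0%, 1.06%, 0.00575%, 0.023% and 0%. At an unadjusted p under 0.05 there were 2, 1, 2, 0, 8 and 4 members, against 8.67%, 12.7%, 15.1%, 1.93%, 14.4% and 4.7% of all genes in either direction. With library weights, which let uneven libraries count less, 1, 0, 1, 0, 3 and 0 members passed, where the counts over all genes were 510, 14, 856, 2, 1664 and 1. The comparisons share libraries (WT_tumor, for one, enters the tumour effect in WT and the KO effect with a tumour), so their values are given side by side and are not independent of each other.

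For the tumour in WT livers most mitotic genes had positive fold changes and cyclin D1 a negative one, and no member passed. At an unadjusted p under 0.05, 1 member was higher (Cdkn1a) and 1 lower (Ccnd1), against 4.49% and 4.18% of all genes. Of the 21 mitosis genes 20 had a positive log2 fold change, with a median of 0.95, against 50.4% positive and a median of 0.00 over all genes. The exception was Cdk1, the kinase that drives entry into mitosis (−0.51). Over all 37 members 27 were positive with a median of 0.66, and 3 were higher and 2 lower with no overlap between the groups, against 9.46% and 8.05% of all genes. The mitosis median was 0.41 without WT_no_tumor replicate 2 and 1.42 without WT_no_tumor replicate 1, the lowest and the highest mitosis library of that group.

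In the deposited mm39 coordinates, the members described most closely lie at chr7:135291513-135318091 (Mki67), chr2:127643036-127673786 (Bub1), chr19:37364851-37410308 (Kif11), chr2:132091082-132095235 (Pcna), chr7:144483668-144493663 (Ccnd1) and chr17:29309950-29319702 (Cdkn1a). Mki67 encodes Ki-67, the coat protein of mitotic chromosomes that is widely used to mark cycling cells. Its values were 244, 72.5 and 174 in WT_no_tumor, 119, 165 and 451 in KO_no_tumor, 269, 277 and 189 in WT_tumor, and 59.2, 159 and 112 in KO_tumor. WT_tumor lay above KO_tumor in every liver, but overlapped both groups without a tumour, and the highest liver was KO_no_tumor replicate 3. Its log2 fold change for the tumour in WT was 0.73 ± 0.57 (SE, limma adjusted p = 0.836), and 0.23 without WT_no_tumor replicate 2. Top2a, the enzyme that untangles replicated DNA, was at 255, 71.5 and 190 in WT_no_tumor and at 295, 286 and 299 in WT_tumor, which do not overlap. Its other values were 73.7, 97.8 and 500 in KO_no_tumor and 108, 162 and 135 in KO_tumor.

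Among the cyclins and kinases of mitotic entry, 6 of 7 were positive for the tumour in WT, with a median of 1.31. Ccnb1, the cyclin B1 partner of Cdk1, was at 19.2, 1.05 and 26.2 in WT_no_tumor, 15.1, 21.8 and 35.5 in KO_no_tumor, 59.8, 25.9 and 38.7 in WT_tumor, and 4.93, 13 and 10.8 in KO_tumor. Every KO_tumor liver lay below every WT_tumor and every KO_no_tumor liver, and WT_tumor overlapped WT_no_tumor. Its tumour effect in WT was 1.95 ± 1.02 (SE, limma adjusted p = 0.663), and 0.78 without WT_no_tumor replicate 2, which held a single read. Ccna2, of the cyclin that acts in S phase and early mitosis, was at 209, 57.8 and 99.4 in WT_no_tumor and at 135, 161 and 242 in WT_tumor. In KO it was at 84.1, 103 and 321 without and 98.6, 75.4 and 43.9 with a tumour. Aurka, Aurkb, Ccnb2 and Plk1, of the spindle kinases and cyclin B2, were at 3 reads or fewer in 3 to 6 of the 12 libraries, so their folds rest on few reads.

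Genes of the spindle checkpoint and of mitotic exit were positive in 6 of 6, with a median of 1.09. Bub1, a kinase of the spindle checkpoint, was at 13.5, 24.2 and 15.1 in WT_no_tumor, 8.51, 14.3 and 46 in KO_no_tumor, 42.5, 65.5 and 53.1 in WT_tumor, and 2.47, 25.4 and 3.08 in KO_tumor. WT_tumor was above every WT_no_tumor and every KO_tumor liver. Its log2 fold change for the tumour in WT was 1.58 ± 0.97 (SE, limma adjusted p = 0.742). Cenpe, the kinetochore motor that brings chromosomes to the spindle equator, was at 2.05 ± 1.32 (limma adjusted p = 0.754), and at 0.29 without WT_no_tumor replicate 2, which was at 0.

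The spindle motors and cytokinesis genes were also positive in 6 of 6, with a median of 0.80. Kif20a, a motor of cytokinesis, had the largest value of all members, 2.59 ± 1.35 (SE, limma adjusted p = 0.661), and 0.91 without WT_no_tumor replicate 2. Tpx2, which builds spindle microtubules around chromosomes, was at 33.9, 31.5 and 16.1 in WT_no_tumor and at 64.8, 64.8 and 59.8 in WT_tumor. These groups did not overlap, and the fold change was 1.25 ± 0.80 (limma adjusted p = 0.75). KO_no_tumor values were 31.2, 21.8 and 9.21, and KO_tumor values were 104, 27.2 and 18.5.

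The remaining mitotic members were low and uneven. Birc5, which encodes survivin of the complex that corrects spindle attachments, ranged from 2.47 to 89.4 over the 12 libraries. Bub1b, of the spindle checkpoint, ranged from 0 to 111, and Cdc20, which activates the ubiquitin ligase of mitotic exit, from 0 to 27.4. Kif23 and Prc1, both of the central spindle, ranged from 4.93 to 128 and from 19.8 to 130, each with its maximum in KO_no_tumor replicate 3. None of these 5 separated a pair of groups compared here.

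Replication genes showed no such one-way pattern in WT livers with a tumour. Of the 11, 5 were positive and 6 negative, with a median of −0.05 that ranged from −0.34 without WT_tumor replicate 2 to 0.13 without WT_no_tumor replicate 1. The 6 subunits of the replicative helicase, Mcm2 to Mcm7, had fold changes from −0.36 (Mcm6) to 0.44 (Mcm4). Over the 12 libraries their values ranged from 39.2 to 356 (Mcm2), 64.1 to 190 (Mcm3), 46.8 to 262 (Mcm4), 61.5 to 319 (Mcm5), 54.9 to 341 (Mcm6) and 62.7 to 223 (Mcm7). KO_no_tumor replicate 3 was highest for Mcm2, Mcm4 and Mcm7, WT_no_tumor replicate 1 for Mcm5 and Mcm6, and KO_tumor replicate 1 for Mcm3. Cdt1 and Cdc6 load the helicase onto DNA, and they ranged from 23.2 to 110 and from 0 to 16.1. Pcna, the sliding clamp of DNA polymerases, was at 1091, 944 and 969 in WT_no_tumor, 1070, 927 and 1339 in KO_no_tumor, 710, 742 and 875 in WT_tumor, and 1223, 1005 and 927 in KO_tumor. All 3 WT_tumor livers lay below all 9 others, with a log2 fold change for the tumour in WT of −0.37 ± 0.20 (SE, limma adjusted p = 0.684). Rrm2, of ribonucleotide reductase, and Tyms, of thymidylate synthesis, were at 0.11 and −0.17.

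**Figure D3:**
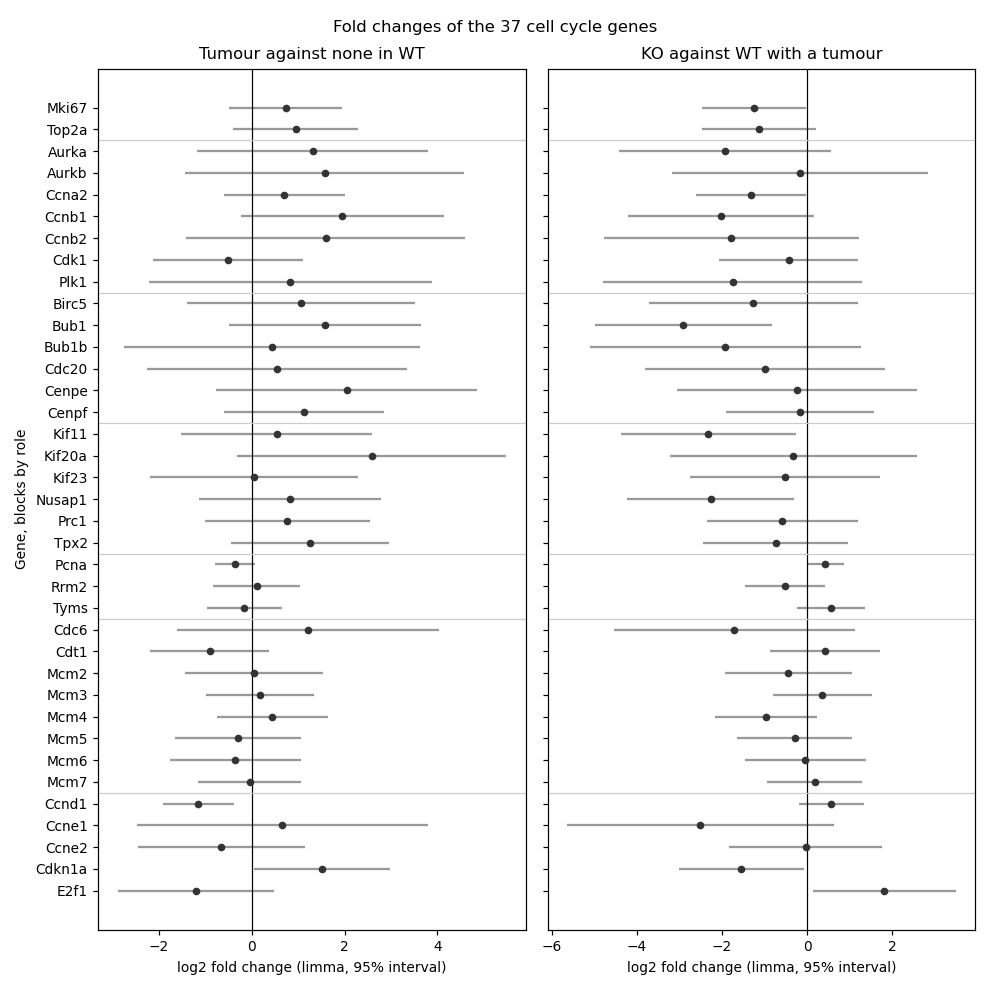
Points are log2 fold changes of the 37 genes with 95% intervals from limma, in blocks by role, for tumour against none in WT (left) and KO against WT with a tumour (right). On the left 20 of the 21 mitosis genes lie to the right of 0, on the right 21 of 21 lie to the left, and the replication genes lie on both sides of 0 in each panel; the panels share the WT_tumor libraries.

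The genes of cycle entry differed from the mitotic ones. Ccnd1, cyclin D1, which starts the G1 phase, was at 9291, 5823 and 8492 in WT_no_tumor and at 3139, 4585 and 2943 in WT_tumor, with means of 7868 ± 1816 and 3556 ± 897 (SD, n = 3). All 3 WT_tumor livers lay below all 6 livers without a tumour. KO_no_tumor was at 6685, 9407 and 10488, and KO_tumor at 6857, 7763 and 2559, so that only KO_tumor replicate 3 was as low as the WT_tumor livers. The log2 fold change was −1.15 ± 0.36 in WT (SE, limma adjusted p = 0.238, 95% interval −1.91 to −0.38), −0.76 ± 0.36 in KO (0.393) and −0.95 ± 0.25 averaged over genotypes (0.0896). With library weights the WT value was −1.31 (limma adjusted p = 0.0476) and the averaged value −1.32 (0.00503), and without KO_tumor replicate 2 the averaged value was −1.10 (0.039).

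Cdkn1a encodes p21, an inhibitor of cyclin-dependent kinases and a target of p53. It was at 25.5, 106 and 181 in WT_no_tumor, 33.5, 48.4 and 33.2 in KO_no_tumor, 382, 206 and 151 in WT_tumor, and 83.8, 117 and 46.9 in KO_tumor. WT_tumor replicate 1 was the highest liver, every WT_tumor liver was above every KO_tumor liver, and WT_tumor overlapped WT_no_tumor. The log2 fold change was 1.52 ± 0.68 in WT (SE, limma adjusted p = 0.559), 1.01 ± 0.68 in KO (0.505) and 1.27 ± 0.48 averaged (0.23), and the WT value was 0.72 without WT_no_tumor replicate 1. E2f1, a transcription factor of S phase genes, was at 131, 56.8 and 35 in WT_no_tumor and at 30.3, 13.6 and 47.6 in WT_tumor, with a fold change of −1.21. Ccne1 and Ccne2, the E cyclins that act with Cdk2 at the start of S phase, were at 0.66 and −0.66 with standard errors of 1.46 and 0.84.

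**Figure D4:**
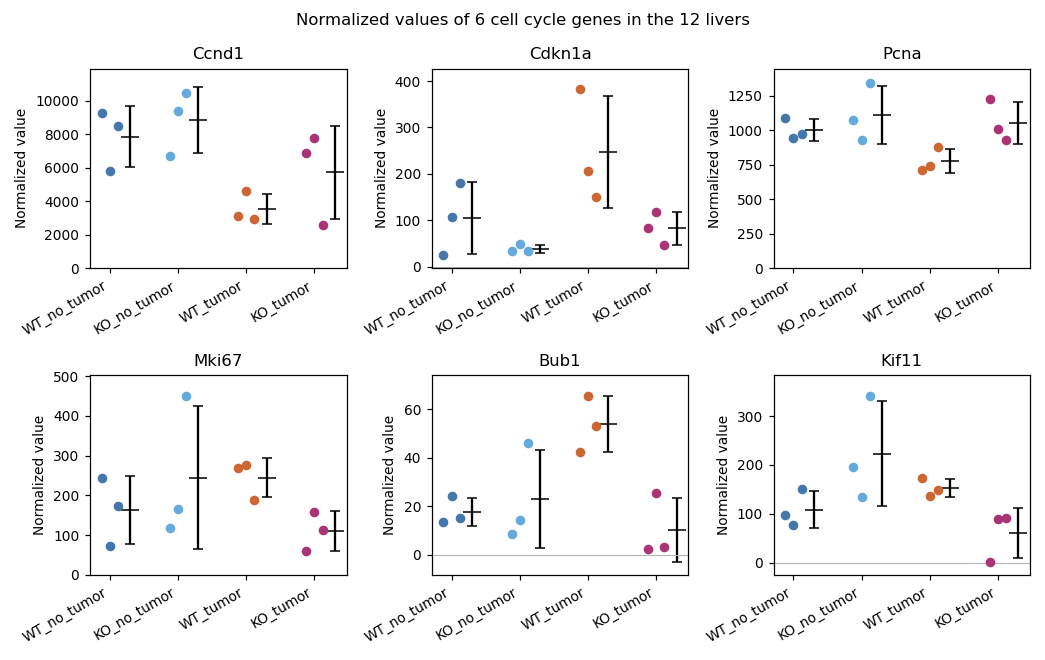
Points are the normalized values of Ccnd1, Cdkn1a, Pcna, Mki67, Bub1 and Kif11 in each liver, by group, and the bars beside them are the mean and SD of 3 livers. Ccnd1 and Pcna are lowest in WT_tumor on average, Bub1 is highest there (42.5 to 65.5), and a bar that reaches below 0 for Bub1 in KO_tumor comes from its spread (10.3 ± 13).

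In KO livers 14 of the 21 mitosis genes had a negative fold change for the tumour, and the size of their median depended on single libraries. At an unadjusted p under 0.05, 0 members were higher and 1 lower (Kif11), against 5.13% and 7.58% of all genes. Of the 37 members 14 were positive and 23 negative, with a median of −0.33 against −0.08 over all genes, and 0 were higher and 3 lower without overlap (7.34% and 9.48% of all genes). The mitosis median was −0.55, and of the replication genes 4 were positive and 7 negative with a median of −0.07. Kif11, the motor that pushes spindle poles apart, was at 195, 134 and 341 in KO_no_tumor and at 2.47, 89.1 and 91.5 in KO_tumor, and the lowest of these is a single read in KO_tumor replicate 1. Its log2 fold change was −2.76 ± 0.96 (SE, limma adjusted p = 0.34), and −1.19 without that library. The mitosis median was −1.39 without KO_no_tumor replicate 1 and −0.32 without KO_tumor replicate 1, and −0.09 without KO_tumor replicate 1 and KO_no_tumor replicate 3.

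Averaged over genotypes, 12 of the 21 mitosis genes were positive with a median of 0.09. The count was 17 of 21 with a median of 0.45 without KO_tumor replicate 1, and 19 of 21 with 0.63 without that library and KO_no_tumor replicate 3. Quantile normalization gave 15 of 21 and 0.36. Without KO_tumor replicate 2 it was −0.19. At an unadjusted p under 0.05 Cdkn1a was higher and Ccnd1 lower, 1 member each way, against 7.08% and 8.06% of all genes, and Tpx2 came next at 1.12 ± 0.56 (SE, limma adjusted p = 0.372). Across all 37 genes 16 were positive with a median of −0.10, against 46.8% and −0.04 over all genes, and 0 members were free of overlap (0.748% of all genes higher and 0.909% lower).

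Without a tumour, KO and WT livers were not told apart by any member. The adjusted p was 1 for all 37, 0 had an unadjusted p under 0.05 (0.978% of all genes higher and 0.955% lower), and 0 were free of overlap, against 3.56% of all genes higher and 4.37% lower. Of the mitosis genes 16 were positive with a median of 0.26, against 49% of all genes, and without KO_no_tumor replicate 3 and KO_tumor replicate 1 the count was 10 with a median of −0.05. The mitosis median was −0.09 without WT_no_tumor replicate 2 and 0.88 without WT_no_tumor replicate 1. Kif20a was at 1.93 ± 1.35 (SE), Cdkn1a at −1.05 ± 0.68, Mki67 at 0.51 ± 0.57 and Ccnd1 at 0.17 ± 0.36. KO_no_tumor replicate 3 set the top of many ranges here but not of most, with Mki67 at 451 and Top2a at 500 against at most 165 and 97.8 in the other KO_no_tumor livers.

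With a tumour, all 21 mitotic genes had a negative fold change in KO against WT livers, and no member passed. Of all genes 0.0115% passed higher and 0.0115% lower. At an unadjusted p under 0.05, 2 members were higher and 6 lower, against 6.31% and 8.13% of all genes. The mitosis median was −1.24, against −0.12 over all genes, of which 42.8% were positive. Over all members 7 were positive and 30 negative with a median of −0.58, and 10 were lower and 2 higher with no overlap, against 9.8% and 8.11% of all genes. Quantile normalization moves the median of all genes from −0.12 to 0.00, and with it 17 of the 21 mitosis genes were negative with a median of −0.70. Without KO_tumor replicate 1 the count was 18 of 21 with a median of −0.94, and over each library left out it was 18 to 21 with medians from −1.39 to −0.94.

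By role, the medians were −1.75 for mitotic entry (7 of 7 negative), −1.13 for the checkpoint and exit genes (6 of 6) and −0.66 for motors and cytokinesis (6 of 6). Bub1 had the smallest p, at −2.91 ± 0.97 (SE, limma adjusted p = 0.228), and −1.81 with a pseudocount of 10. Nusap1, which bundles spindle microtubules, was at 99.4, 49.7 and 96.3 in WT_tumor and at 2.47, 31.2 and 39.2 in KO_tumor. Its fold change was −2.26 ± 0.91 (limma adjusted p = 0.292), and that of Kif11 was −2.32 ± 0.96 (0.303). Without KO_tumor replicate 1, where each of these was a single read, they were −1.14 and −0.75. Ccna2 (−1.32 ± 0.61, limma adjusted p = 0.342) and Mki67 (−1.24 ± 0.57, 0.342) rested on more reads and were free of overlap. With library weights Bub1 (−2.98, limma adjusted p = 0.0195), Ccna2 (−1.62, 0.0293) and Cdkn1a (−2.26, 0.0229) passed, as did 1664 of all 17380 genes.

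Some mitotic genes ran against this in KO_tumor replicate 1. Kif20a was at 279 there, against 22.1 and 16.9 in the other KO_tumor livers and 28.1 to 91.5 in WT_tumor. Cenpe was at 160 against 27.3 and 13.1, Cenpf, a kinetochore protein, at 207 against 48.8 and 34.6, and Tpx2 at 104 against 27.2 and 18.5. These values rested on 113, 65, 84 and 42 reads, so the same library held both the highest and the lowest values of the mitotic set. The other KO_tumor livers had mitosis medians of −0.05 and −0.42, both below the WT_tumor range.

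Several lists of markers of other cell types summed higher in every WT_tumor liver than in any liver without a tumour, and some did not. The mitosis medians are another measure, taken on centred log2 values and not as sums. They were 0.60 to 0.79 in WT_tumor, 0.82 in WT_no_tumor replicate 1 and 1.07 in KO_no_tumor replicate 3. Markers of granulocyte precursors (9 of 11 in the table) summed to 693 to 852 in WT_tumor, against 16.9 to 34.1 in WT_no_tumor, 9.21 to 38.7 in KO_no_tumor and 24.7 to 323 in KO_tumor. Most of that sum was Prtn3 (644, 346 and 545 in WT_tumor) and Chil3, while Elane was at 0 in 9 libraries, and Ms4a3 and Camp were at 0 in 10 each; all 3 were at 0 in WT_tumor replicate 3. Markers of neutrophils (12 of 12) summed to 513 to 923 in WT_tumor, 71.7 to 251 in WT_no_tumor, 147 to 190 in KO_no_tumor and 131 to 409 in KO_tumor. Erythroid markers (16 of 18) summed to 6398 to 10832 in WT_tumor, 2232 to 4318 in WT_no_tumor, 2542 to 4402 in KO_no_tumor and 2541 to 11914 in KO_tumor, with Gata1 and Kel at 0 in 11 libraries each. The erythroid sum of 11914, the highest of the 12, was in KO_tumor replicate 1, the liver with the lowest mitosis median. Stellate cell and fibroblast markers (10 of 10, all above 0 in every library) summed to 23121 to 27216 in WT_tumor. In KO_tumor they summed to 15786 to 20848, below WT_tumor and above every liver without a tumour (13034 to 15439). In KO_tumor Dcn was at 5856 to 7228, against 2531 to 3846 without a tumour. Pdgfrb was at 427 to 917 against 165 to 247, and every other marker of this list overlapped between KO_tumor and the livers without a tumour. Cholangiocyte markers (7 of 7) summed to 1903 to 2589 in WT_tumor, above every liver without a tumour (1172 to 1704), and to 1344 to 2116 in KO_tumor, which overlapped both. Most of that sum was Spp1 and Sox9, and Spp1 overlapped (1064 to 1618 in WT_tumor, 676 to 1208 without a tumour). For the tumour in WT, 4 of these markers had a positive fold change and 3 a negative one. Only Sox9 and Cldn7 were free of overlap there. The part of the cells of all these lists in the mitotic values was not tested.

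Like the erythroid and cholangiocyte sums, those of the remaining lists overlapped between WT_tumor and KO_tumor. Monocyte and Kupffer cell markers (14 of 14) summed to 13174 to 21549 in WT_tumor and to 12060 to 18572 in KO_tumor, and T and NK cell markers (15 of 15) to 339 to 774 and 349 to 755. B and plasma cell markers (10 of 11) summed to 567 to 5498 in WT_tumor and to 975 to 1620 in KO_tumor, where they lay between 431 and 1920 without a tumour. Endothelial markers (10 of 10) summed to 15521 to 19253 in WT_tumor and to 18039 to 24428 in KO_tumor. Mammary epithelial markers (8 of 11), which the tumour cells could bring, summed to 5070 to 8223 in WT_tumor and 3469 to 8556 in KO_tumor. They summed to 3485 to 4217 in WT_no_tumor and 3458 to 3873 in KO_no_tumor, below every WT_tumor liver. These sums were mostly Krt8, Krt18 and Cdh1, which liver epithelium also expresses. Krt8 and Krt18 were higher in every WT_tumor liver than in any without a tumour, and no other marker of the list was. The part of these cells in the values of the 37 genes was not tested.

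Members outside mitosis went both ways with a tumour present. E2f1 was at 182, 77.9 and 65.4 in KO_tumor, above all 3 WT_tumor livers, with a fold change of 1.81 ± 0.78 (SE, limma adjusted p = 0.323). Pcna was at 0.43 ± 0.20 (limma adjusted p = 0.346) and also free of overlap. Cdkn1a was at −1.55 ± 0.68 (limma adjusted p = 0.33), with every KO_tumor liver below every WT_tumor liver. Of the 11 replication genes 5 were positive and 6 negative, with a median of −0.04 that ranged from −0.27 without WT_tumor replicate 1 to 0.29 without WT_tumor replicate 2.

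The interaction asks whether the tumour effect differed between genotypes, and 0 members passed. Of the mitosis genes 20 of 21 were negative with a median of −1.72, against −0.09 over all genes. Against 4.7% of all genes, 4 members had an unadjusted p under 0.05. They were Kif11 (−3.30 ± 1.36, SE), Ccnb1 (−3.21 ± 1.45), Bub1 (−2.98 ± 1.37) and Mki67 (−1.75 ± 0.80), each with a limma adjusted p of 0.859. The median was −0.61 without WT_no_tumor replicate 2 and −1.19 without KO_no_tumor replicate 3, each with 17 of 21 negative and 0 mitosis genes at an unadjusted p under 0.05, and −2.09 without KO_no_tumor replicate 1. Without WT_tumor replicate 1, 0 of the 37 members had such a p. Without both libraries that stood apart 17 of 21 were negative with a median of −1.03, and the value of Kif11 was −1.37. The replication genes had 6 positive and 5 negative members with a median of 0.01. No member was higher with a tumour in 1 genotype and lower in the other without overlap.

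Other genes of the same pathways, from lists of mitosis, replication, G1 and E2F genes, cyclin-dependent kinase inhibitors and p53 targets, had 0 members past limma in any comparison. Of 50 further mitosis genes 47 were tested. For the tumour in WT 35 were positive with a median of 0.39, and for KO against WT with a tumour 37 were negative with a median of −0.96. Without KO_tumor replicate 1 the latter was 34 of 47 with a median of −0.46, without KO_tumor replicate 2 the median was −1.41, and with quantile normalization 30 of 47 with −0.38. Aspm, a spindle pole protein, was at −2.63 ± 0.99 (SE, limma adjusted p = 0.266), while Pttg1, which encodes securin, the inhibitor of separase, was at 1.45 ± 0.55 (0.266).

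Spc24 and Spc25, both of the kinetochore complex that grips microtubules, had negative fold changes for the tumour. Averaged over genotypes they were at −2.10 ± 0.70 (SE, limma adjusted p = 0.163) and −1.23 ± 0.38 (0.136). Of 40 further replication genes 17 were positive and 23 negative for the tumour in WT, with a median of −0.09. For KO against WT with a tumour the counts were again 17 and 23, with a median of −0.17.

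Of 17 further genes of G1 and the E2F family, E2f8, a repressor of the E2F family, had the smallest p for the tumour in WT. Its values were 183, 115 and 183 in WT_no_tumor, 34, 140 and 155 in KO_no_tumor, 31, 33.1 and 26.6 in WT_tumor, and 178, 89.1 and 95.4 in KO_tumor. The WT_tumor livers lay below all 9 others. The fold change was −2.34 ± 0.60 for the tumour in WT (SE, limma adjusted p = 0.131) and 1.90 ± 0.60 for KO against WT with a tumour (0.214). The first passed with quantile normalization (−2.76, limma adjusted p = 0.0338), with library weights (−2.43, 0.00853) and without both libraries that stood apart (−2.34, 0.0416), and the second with library weights (1.63, 0.0272).

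The 18 p53 targets listed besides Cdkn1a were split 9 to 9 for the tumour in WT, with a median of −0.04. Btg2, which restrains proliferation, was at 217, 188 and 165 in WT_no_tumor, 136, 157 and 209 in KO_no_tumor, 3170, 637 and 334 in WT_tumor, and 1001, 277 and 288 in KO_tumor. Every liver with a tumour lay above every liver without. Its averaged fold change was 1.80 ± 0.46 (SE, limma adjusted p = 0.0857), and it passed with library weights (1.96, 0.0123) and without WT_tumor replicate 3 (2.14, 0.0479). Of the 7 kinase inhibitors listed besides Cdkn1a 4 were tested, and Cdkn1b, which encodes p27, was at −0.09 ± 0.22 for the tumour in WT.

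Histone genes that are transcribed in S phase had a positive median fold change for the tumour in both genotypes, and the value in KO rested on KO_no_tumor replicate 1. Their messages mostly lack a poly(A) tail and were kept by these libraries, which were depleted of ribosomal RNA. The table holds 56 such genes. Of these, 43 were tested, and 32 were positive in WT with a median of 0.63, 28 in KO with 0.66, and 32 averaged with 0.62, against medians of 0.00, −0.08 and −0.04 over all genes. Without KO_no_tumor replicate 1 the KO median was 0.02, with 21 of 43 negative, and the averaged median 0.27, and without WT_tumor replicate 2 the WT median was 0.34. Averaged over genotypes 11 were higher and 1 lower at an unadjusted p under 0.05, against 7.08% and 8.06% of all genes. By limma 0 passed, against 1.06% of all genes. Histone copies are nearly identical in sequence, and how reads were assigned among them is not stated in the labels or files, so the value of any copy is uncertain.

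H4c3, a histone H4 gene, was at 117, 148 and 382 in WT_no_tumor, 212, 506 and 294 in KO_no_tumor, 371, 541 and 290 in WT_tumor, and 617, 800 and 764 in KO_tumor. KO_tumor lay above all 9 other livers. Its averaged fold change was 1.11 ± 0.30 (SE, limma adjusted p = 0.0984), and it passed without WT_no_tumor replicate 3 (1.37, 0.0347) and with library weights (0.0464). H4c6 was at 3.18 ± 0.94 (limma adjusted p = 0.123), with every tumour liver (65.4 to 275) above every other (0 to 37), and passed with a pseudocount of 10 (2.11, 0.0489) and library weights (2.63, 0.0459). H4c4 was at 0.65 ± 0.22 (0.169) and passed without KO_no_tumor replicate 2 (0.83, 0.0496). H1f2, a linker histone, was at 1.14 ± 0.36 (0.144) with its highest value, 2875, in KO_tumor replicate 1. Without both libraries that stood apart, 33 of 43 were positive averaged over genotypes with a median of 0.82, and H4c11, named after its value was seen, passed (2.90, limma adjusted p = 0.0458).

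**Figure D5:**
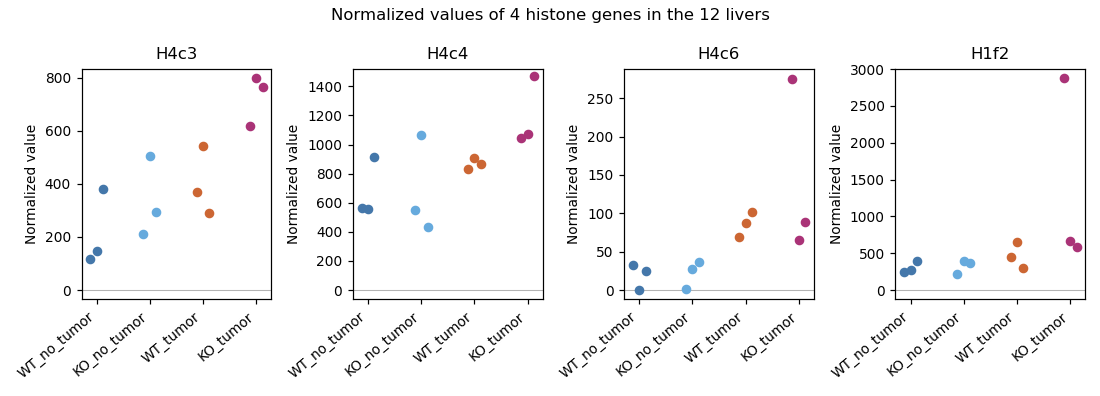
Points are the normalized values of H4c3, H4c4, H4c6 and H1f2 in each of the 12 livers, by group. For H4c6 the 6 livers with a tumour (65.4 to 275) lie above the 6 without (0 to 37), H4c3 is highest in KO_tumor, and H1f2 has a lone high value of 2875 in KO_tumor replicate 1.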

How the data were processed

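Per the labels' protocols, total RNA from frozen, powdered livers of 12 mice was depleted of ribosomal RNA and sequenced. The deposited signal values are gene-level reads that the authors scaled; per the submitters' processing notes, STAR 2.7.8a, DESeq2, Partek and mm39 were used. For the counting program, annotation release and strand setting: not given in the sources used here. Depth was estimated from the smallest step between low values. Only 78% to 84.9% of low values per library (up to 20 reads, tolerance 0.01 reads) were whole reads, so no count model was used. Whether a value is close to 0 is judged at 3 reads.

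The log2(value + 1) values of 17380 genes (10 or more in 3 or more libraries) entered 1 limma fit (3.58.1, R 4.3.3) of the 4 groups with a mean-variance trend, and p-values were adjusted by Benjamini-Hochberg over these genes, with 0.05 as the threshold. A log2 fold change on this scale understates the change of low genes. The fit was tested on simulated data. Tables and figures used Python 3.11.15, pandas 2.3.3, numpy 2.4.6 and matplotlib 3.10.9. Groups and replicate numbers come from the labels, and replicates are different livers as far as the labels say. An exact permutation test of 3 libraries against 3 cannot reach 0.05, and none was run.

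The members and gene lists were chosen with earlier results of these data known. Named with a test were members past the threshold, up to 8 with the smallest p in a comparison, and Mki67, Ccnd1 and Cdkn1a; from other lists, up to 2 genes a comparison (4 for histones). Alternatives were a pseudocount of 10, no filter, equal totals, quantile normalization, only the groups compared, library weights, robust variances, a replicate block, each library left out, and KO_tumor replicate 1 with KO_no_tumor replicate 3 left out. Counts of mitosis genes by sign and the lists under all alternatives were added after seeing the data. Promoters were searched on both strands in the 250 bases before the start.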

Additional observations from a re-analysis of the deposited data

How the results depend on the processing

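The count of members past the threshold was 0 in all 6 comparisons and stayed 0 under every alternative except library weights, which gave 1 for the tumour in WT, 1 averaged over genotypes and 3 for KO against WT with a tumour, and leaving out KO_tumor replicate 2, with which the averaged count ranged from 0 to 1 over libraries left out. The cause was not tested, and with library weights 510, 856 and 1664 of all 17380 genes passed in these comparisons. The median of the members in the interaction (−0.60) ranged from −1.3 without WT_no_tumor replicate 1 to −0.44 without WT_no_tumor replicate 2. Over libraries left out, Mki67 averaged over genotypes (−0.15) ranged from −0.39 to 0.13, Mki67 in KO against WT without a tumour (0.51) from −0.05 to 0.9, Ccnd1 in that comparison (0.17) from −0.03 to 0.36, and Cdkn1a in the interaction (−0.50) from −1.09 to 0.3, each changing sign. With KO_tumor replicate 1 and KO_no_tumor replicate 3 both out, Mki67 was at 0.33 averaged and at −0.05 without a tumour, and with library weights the Ccnd1 interaction (0.39) was at −0.02. The number of all genes past the threshold for KO against WT with a tumour was 4, and ranged from 0 in a fit of only these groups to 1664 with library weights. Livers with the same replicate number in their titles showed no pairing (18 correlations, −0.094 to 0.1). The sample descriptions call KO_no_tumor replicates 2 and 3 Normal-KO-3 and Normal-KO-4, and pairing by those numbers was not tested. The fit with the replicate block gave 0 members in each comparison, a member median of −0.58 for KO against WT with a tumour, and 13 genes in all there. Depth limits KO_tumor replicate 1, where 14 members were at 3 reads or fewer.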
